A study of Mus musculus with 35 samples.

Results

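Dppa2, Dppa3, Dppa4, Dppa5a, L1td1 and Tdh are 6 mouse genes whose transcripts mark embryonic stem (ES) cells, and their levels were followed while ES cells were driven towards primitive endoderm (PrE) by GATA6. They were found by gene name: all 6 of 6 were among the 44853 genes of the induction table and among the 6275 genes of the siRNA table. The second table holds only genes that the authors had classed as responsive to GATA6, so the presence of the 6 genes there follows from that choice. All 6 passed the filter on low values (a group mean of 1 TPM or more in any group), through the ES cell groups where they were high. TPM states how abundant a transcript was within its library after correction for gene length.

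The induced cells were KH2 ES cells of a C57BL/6 x 129/Sv genotype that carried a single-copy, doxycycline (Dox) inducible GATA6 cassette in addition to their own Gata6. They were grown in serum and LIF on inactivated embryonic fibroblast feeders and collected untreated (0 h) or after Dox (1 µg/mL) for 16, 24, 48, 72, 96 and 168 h, and each of the 7 times gave 3 libraries. XEN cells, stem cells of the extra-embryonic endoderm used as the reference for PrE, came from the wild-type X10 line of CD1 genotype, were grown on feeders without LIF and without Dox, and gave 2 libraries. For the knockdown, the inducible cells received control siRNA (siCTL) or siRNA against Oct4 (siOct4), the product of Pou5f1, and were collected after 48 h of Dox, with 6 libraries each; both groups therefore carried the cassette and Dox. XEN cells differ from the induced cells in strain, line and LIF as well as in state, and these cannot be told apart. Feeders were removed by adsorption before lysis, and the values describe cell populations, in which fewer cells of a type and less RNA per cell cannot be told apart.

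Dppa2 and Dppa4 are neighbouring genes whose proteins bind each other through their SAP domains, sit on chromatin and keep developmental promoters free of DNA methylation; they also activate genes of the zygote. Dppa3 (also Stella or Pgc7) protects methylation of the maternal genome in the zygote and withholds the maintenance methylation factor UHRF1 from chromatin. Dppa5a (Esg1) is a small KH-domain RNA-binding protein of the germline and ES cells, L1td1 is an RNA-binding protein that arose from a LINE-1 retrotransposon and associates with LIN28, and Tdh is the threonine dehydrogenase that lets mouse ES cells feed one-carbon metabolism from threonine. All are commonly used to recognise pluripotent cells.

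On mm10, with gene positions from GENCODE M21, Dppa4 lies on chromosome 16 from 48283733 to 48294237 and Dppa2 follows on the same + strand from 48303908 to 48319723, so that 9671 bp separate them. Dppa3 lies on chromosome 6 from 122626410 to 122630272 on the + strand, next to Gdf3 and Nanog. Dppa5a lies on chromosome 9 from 78367052 to 78368177 on the - strand, beside Ooep. L1td1 lies on chromosome 4 from 98726734 to 98738480 on the + strand, and Tdh on chromosome 14 from 63492347 to 63509092 on the - strand. Dppa3 and Dppa5a have near-identical copies elsewhere in the genome, and reads shared with them could be split between the copies.

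Of the 6 genes, 1 matched the RefSeq promoter table (GRCm38.p6), and the 250 bases upstream of the start that RefSeq gives are shown because L1td1 was also the one gene of the 6 still well above 1 TPM in XEN cells. The window is chr4:98726504-98726753 on the + strand, with each CpG in capitals, and its last bases lie past the GENCODE start given above.
L1td1 promoter: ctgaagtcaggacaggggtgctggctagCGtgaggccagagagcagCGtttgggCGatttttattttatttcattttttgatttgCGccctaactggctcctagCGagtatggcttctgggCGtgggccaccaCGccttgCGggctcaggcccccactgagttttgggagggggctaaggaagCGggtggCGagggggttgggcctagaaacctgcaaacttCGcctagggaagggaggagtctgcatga
It held 11 CpG, against a median of 6 over the 32851 promoter windows of that length, of which 35.57% held at least as many. The GATA motifs AGATAA and TGATAA, searched on both strands, were in 9.99% and 7.94% of all windows, and the octamer ATGCAAAT in 1.6%. None of these letters was in the L1td1 window.

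Between 12034 and 13109 genes reached 1 TPM in each induction library, and TPM keeps no record of read number, so the depth is unknown. The labels were checked first. Gata6 was between 0.193 and 0.375 TPM at 0 h, between 129 and 138 TPM at 16 h, and between 317 and 369.6 TPM at 168 h. ES cell markers were present at 0 h, where the summed level of the 12 listed genes was 4185 to 4383 TPM, and fell to 253 to 357 TPM at 168 h and 127 to 133 TPM in XEN cells. The 15 PrE markers summed to 151 to 248 TPM at 0 h, 33786 to 34643 TPM at 168 h and 15855 to 15972 TPM in XEN cells. In XEN cells 1 of the 15, Amn, was lower than at 0 h, with a log2 change of -1.59.

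The order of levels at 0 h was Dppa5a, L1td1, Tdh, Dppa4, then Dppa3 and Dppa2, whose libraries overlapped. Dppa5a made up 0.604% to 0.629% of all transcripts and was between the 15th and 17th most abundant gene of the untreated libraries, whereas the other 5 genes lay between ranks 262 and 1558.

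**Figure D1:**
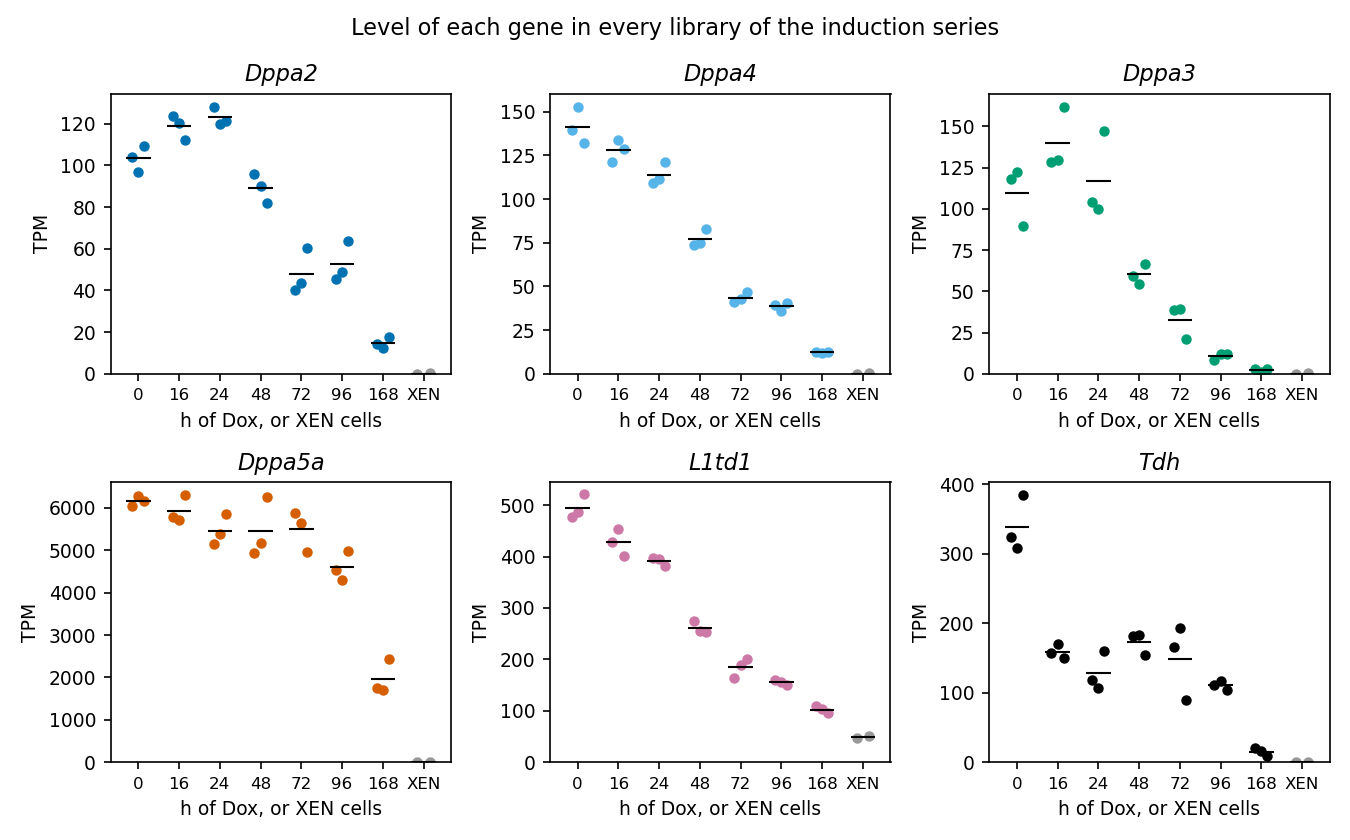
TPM of each of the 6 genes (vertical axis, from 0) in every library of the induction series by hours of Dox and in XEN cells (horizontal axis); points are libraries, grey for XEN cells, and bars are group means. Tdh was lower from 16 h, Dppa5a stayed at or above 4286 TPM until 96 h, and L1td1 was at 47.9 and 51.4 TPM in XEN cells while the other 5 genes were at or below 1.18 TPM.

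Tdh fell first. It was at 324, 308 and 384 TPM at 0 h, at 158, 169.8 and 149.8 TPM at 16 h and at 119, 107 and 160.3 TPM at 24 h. All early libraries were thus below all untreated ones. The log2 change of TPM + 1 was -1.08 ± 0.26 (SE) at 16 h, with a limma adjusted p of 0.00723, and -1.41 ± 0.26 at 24 h, with a limma adjusted p of 0.000361. At both times Tdh was the 1 gene of the 6 to be called (adjusted p under 0.05 and a log2 change beyond 1), where 0.804% of the 15057 genes tested were called lower at 16 h and 2.44% at 24 h. The 16 h call was lost when any one replicate number was left out, with a log2 change between -1.19 and -0.95.

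After this early drop Tdh stayed in a common range until 72 h. It read 182, 184 and 155 TPM at 48 h, 166, 193 and 89.4 TPM at 72 h and 111, 117 and 105 TPM at 96 h. Libraries of 16, 24, 48 and 72 h overlapped one another, so no order can be read among them, and the 72 h libraries differed most among themselves. Those of 96 h were all below those of 16 and 48 h, although the log2 change from 48 to 96 h of -0.64 ± 0.26 was not called (limma adjusted p = 0.0528). As a share of the untreated mean, Tdh stood at 46.9% ± 2.97 (SD, n = 3) at 16 h, 51.2% ± 4.84 (SD, n = 3) at 48 h and 32.7% ± 1.74 (SD, n = 3) at 96 h. Between 96 and 168 h it fell again, by 2.85 ± 0.26 on the log2 scale (limma adjusted p = 8.31e-08), to 21.3, 16.1 and 8.75 TPM, or 4.54% ± 1.87 (SD, n = 3) of the untreated mean.

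Dppa4 was lower at each later group mean. Its libraries were at 139, 153 and 132 TPM at 0 h, at 121, 134 and 129 TPM at 16 h and at 109, 111 and 121 TPM at 24 h. The 24 h libraries were all below the untreated ones, and the log2 change of -0.31 ± 0.07 had a limma adjusted p of 0.00313, under the fold minimum. Dppa4 was then at 73.9, 74.6 and 82.9 TPM at 48 h, 40.9, 42.8 and 46.7 TPM at 72 h and 39.4, 36.2 and 40.6 TPM at 96 h. By 168 h it was at 12.4, 11.9 and 12.5 TPM, which is 8.67% ± 0.207 (SD, n = 3) of the untreated mean.

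Dppa2, the partner of Dppa4, kept its level for longer. It was at 104, 97.1 and 109 TPM at 0 h, at 124, 120.2 and 112 TPM at 16 h and at 128, 119.9 and 121 TPM at 24 h. The libraries of 16 and 24 h were all above those of 0 h, although the log2 differences of 0.20 ± 0.14 and 0.25 ± 0.14 had limma adjusted p-values of 0.451 and 0.212. Dppa2 was at 95.8, 89.9 and 82.0 TPM at 48 h, 40.3, 43.4 and 60.5 TPM at 72 h and 45.5, 48.8 and 63.6 TPM at 96 h, and the last 2 groups overlapped. At 168 h it read 14.5, 12.2 and 17.7 TPM, or 14.3% ± 2.67 (SD, n = 3) of the untreated mean.

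The ratio of Dppa2 to Dppa4 within a library, which no scaling of the library can change, was examined after these values were seen and is given as a description. Before Dox it was 0.746, 0.635 and 0.826. It was 1.02, 0.898 and 0.873 after 16 h, and 1.17, 1.08 and 1.00 after 24 h. Within the induction series every library of a later time lay above every untreated one. The group means from 48 to 168 h were between 1.10 and 1.36, with overlapping libraries. In the knockdown after 48 h of Dox, the ratio ran from 0.683 through a median of 0.951 to 1.08 in siCTL libraries. In siOct4 libraries it ran from 0.661 through 1.00 to 1.298, so that both groups reached into the untreated range of the induction series. The knockdown cells were nucleofected and plated at once in Dox, and that experiment had no untreated libraries. A change from its own untreated state therefore cannot be read.

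**Figure D2:**
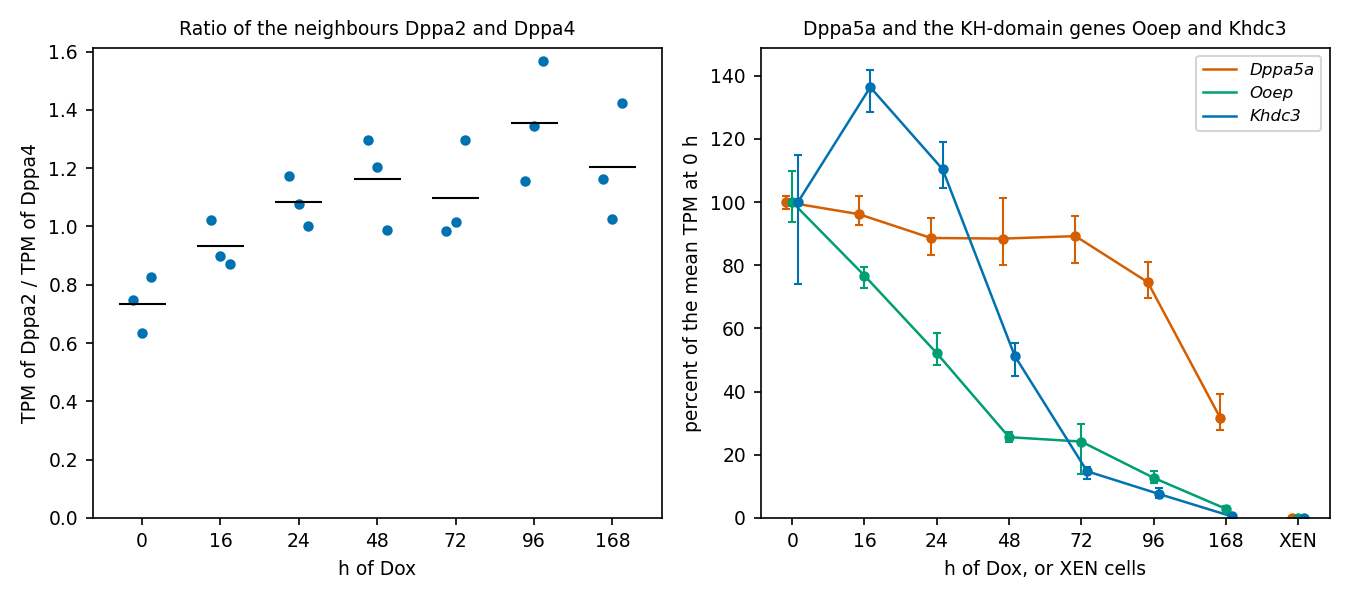
Left, ratio of Dppa2 TPM to Dppa4 TPM (vertical axis, from 0) in each library by hours of Dox, with bars for group means: all Dox-treated libraries of the induction series lie above its untreated ones, which reach 0.826. Right, Dppa5a, Ooep and Khdc3 as percent of their mean TPM at 0 h, where points are group means and bars run from the lowest to the highest library: at 96 h Dppa5a was at 74.6%, Ooep at 12.7% and Khdc3 at 7.52%.

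Dppa3 was kept through the first day and had the lowest mean share of its untreated level among the 6 genes at 168 h. Its libraries were at 118, 122 and 89.5 TPM before Dox. They were at 129, 129.6 and 162 TPM at 16 h and 104, 99.9 and 147 TPM at 24 h. Libraries of 24 h overlapped those of 0 h, and neither early time was called (limma adjusted p = 0.43 at 16 h and 0.851 at 24 h). It was at 59.3, 54.6 and 66.8 TPM at 48 h, at 38.4, 39.2 and 20.9 TPM at 72 h and at 8.26, 11.9 and 12.1 TPM at 96 h. No 2 of these groups overlapped. Dppa3 was the one gene of the 6 called between 48 and 96 h, with a log2 change of -2.39 ± 0.24 (limma adjusted p = 3.62e-07), where 4.73% of all genes tested were called lower. At 168 h it was at 2.68, 1.14 and 2.92 TPM, or 2.04% ± 0.88 (SD, n = 3) of the untreated mean, so that its log2 change depends on the pseudocount of 1.

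Dppa5a was the last of the 6 to be called against 0 h. Its libraries were at 6037, 6287 and 6165 TPM at 0 h and 5138, 5390.3 and 5859.6 TPM at 24 h, when all were below the untreated ones. They were at 4938, 5173 and 6242 TPM at 48 h and 5883, 5647 and 4966 TPM at 72 h. Those of 48 h overlapped the untreated ones and those of 72 h were all below them, and the log2 change at 72 h was -0.17 ± 0.16 (limma adjusted p = 0.383). At 96 h Dppa5a was at 4525, 4286 and 4985 TPM, all below the untreated libraries, with a log2 change of -0.42 ± 0.16 (limma adjusted p = 0.0284) that stayed under the fold minimum. It then fell by 1.25 ± 0.16 on the log2 scale between 96 and 168 h (limma adjusted p = 7.53e-06) to 1741, 1706 and 2427 TPM. With 31.8% ± 6.6 (SD, n = 3) of its untreated level, Dppa5a was still between the 53rd and 82nd most abundant gene at 168 h.

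L1td1 declined steadily and with little spread between replicates. It was at 477, 487 and 521 TPM at 0 h, 428, 454 and 401 TPM at 16 h, and 397, 395 and 382 TPM at 24 h. No 2 groups of the time course overlapped for L1td1. The 24 h log2 change of -0.34 ± 0.07 (limma adjusted p = 0.00147) was under the fold minimum. Later libraries were at 274, 255 and 254 TPM at 48 h, 164, 189 and 202 TPM at 72 h and 160.0, 156 and 151 TPM at 96 h. At 168 h L1td1 was at 109, 103 and 95.6 TPM, which is 20.7% ± 1.38 (SD, n = 3) of the untreated mean. Between 96 and 168 h its log2 change was -0.60 ± 0.07, with a limma adjusted p of 2.76e-06 but under the fold minimum, and it was the one gene of the 6 not called over this interval. Over the same interval 2.44% of all genes tested were called lower.

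Set side by side, the comparisons with 0 h share the 3 untreated libraries. At 48 h no member was called, against 7.26% of all genes called lower, because the log2 changes of Tdh (-0.96), L1td1 (-0.92), Dppa4 (-0.87) and Dppa3 (-0.85) had limma adjusted p-values under 0.05 but did not reach 1. At 72 h, 5 of 6 were called lower, against 11.5% of all genes: Dppa3 (-1.75 ± 0.24), Dppa4 (-1.68 ± 0.07), L1td1 (-1.42 ± 0.07), Tdh (-1.24 ± 0.26) and Dppa2 (-1.11 ± 0.14). Tdh lost this call without replicate 3, at -0.82, and Dppa2 without replicate 1, at -0.99. At 96 h, 4 of 6 were called lower, against 14.1% of all genes, and Dppa2 was at -0.98 ± 0.14. At 168 h all 6 of 6 were called lower, against 16.5% of all genes, with a median of -3.08 where the median of all genes was 0.09.

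**Figure D3:**
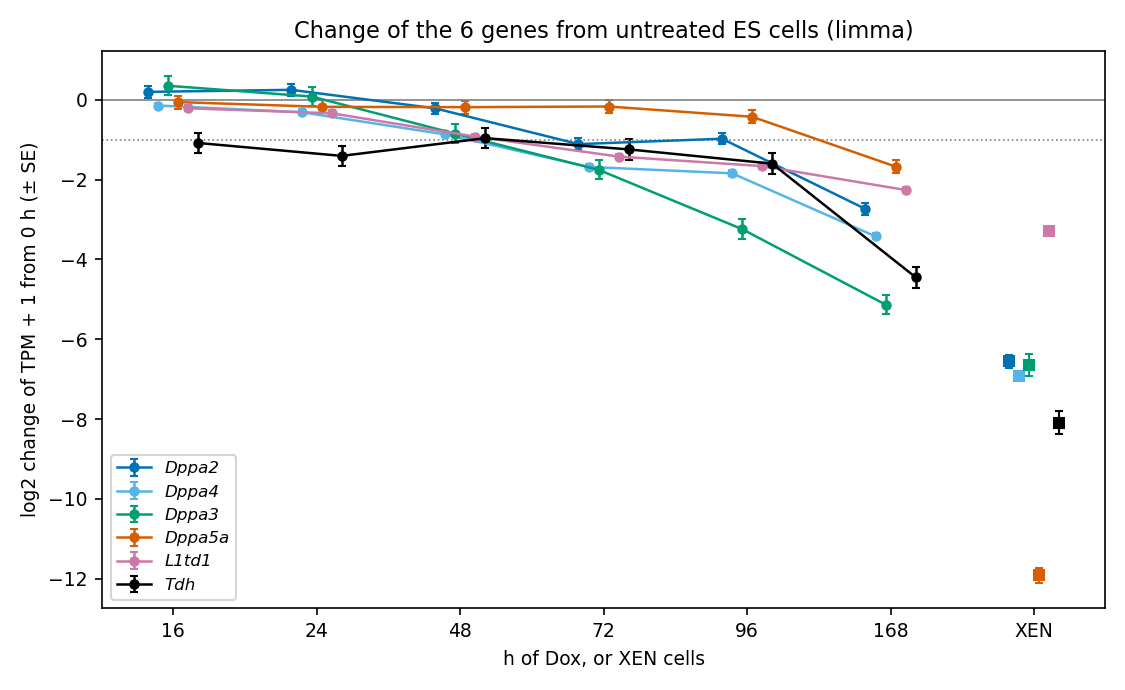
Log2 change of TPM + 1 from 0 h (vertical axis) for the 6 genes by hours of Dox and in XEN cells (horizontal axis), with points for limma estimates and bars for their SE; the dotted line marks the fold minimum of -1. Tdh was past the line at 16 h, Dppa5a crossed it only at 168 h, and in XEN cells the change ran from -3.29 for L1td1 to -11.91 for Dppa5a.

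By 168 h the changes ranged from -1.67 ± 0.16 for Dppa5a (limma adjusted p = 1.97e-08) to -5.13 ± 0.24 for Dppa3 (limma adjusted p = 4.31e-13). L1td1 was at -2.26 ± 0.07, Dppa2 at -2.74 ± 0.14, Dppa4 at -3.42 ± 0.07 and Tdh at -4.45 ± 0.26. Fibroblast markers moved at this time too: 8 of 15 listed genes rose, against 22.6% of all genes, and 1, Fn1, fell, against 16.5%, led by Col3a1, a fibrillar collagen chain, at 3.01 ± 0.49, Twist1 at 1.82 ± 0.17, Lum at 1.74 ± 0.42 and Postn at 1.52 ± 0.31. Their summed level was 284 to 415 TPM at 0 h and 289 to 471 TPM at 168 h, none of the 15 was at 0 in all libraries of either group, and their part in the result was not tested.

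In XEN cells 5 of the 6 genes were near the lower end of measurement. Dppa5a was at 1.18 and 0.172 TPM, Tdh at 0.394 and 0.101 TPM, and Dppa4 at 0.162 and 0.192 TPM. Dppa2 was at 0.0404 and 0.182 TPM, and Dppa3 at 0.212 TPM in one library and listed at 0 in the other. L1td1 differed, at 47.9 and 51.4 TPM, which is 10.03% ± 0.488 (SD, n = 2) of its untreated mean. All 6 were called lower than at 0 h, against 18.7% of all genes, with log2 changes of -11.91 ± 0.18 for Dppa5a, -8.09 ± 0.29 for Tdh, -6.92 ± 0.08 for Dppa4, -6.64 ± 0.27 for Dppa3, -6.56 ± 0.16 for Dppa2 and -3.29 ± 0.08 for L1td1. Those of the low genes depend on the pseudocount.

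The cells at 168 h still held more of each gene than XEN cells. All 6 were called lower in XEN cells than at 168 h, against 9.17% of all genes. No library of one group overlapped the other, but the share of all genes that separate in this way was not counted. Dppa5a differed by -10.24 ± 0.18 (limma adjusted p = 8.54e-19), from 1706 TPM or more at 168 h to 1.18 TPM or less. Dppa2, Tdh and Dppa4 followed at -3.82 ± 0.16, -3.65 ± 0.29 and -3.50 ± 0.08, then Dppa3 at -1.51 ± 0.27 and L1td1 at -1.03 ± 0.08. L1td1 apart, XEN values were near the lower end of measurement, so these changes and their order depend on the pseudocount of 1. Dppa3, at 2.92 TPM or less at 168 h, had little room for a larger change on this scale. Median-of-ratios rescaling, which moved the median of all genes in this comparison from -0.14 to -0.02, put L1td1 at -0.86 and ended its call. Under it 1076 genes were called lower and 930 higher in XEN cells, where 1380 and 712 had been called before. Pou5f1 was at 39.1, 39.1 and 112 TPM at 168 h, so that ES cell transcripts other than those of the 6 genes were also left.

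Genes known to work with each of the 6 were taken from lists and counted at 168 h against 0 h, where 16.5% of all genes were called lower and 22.6% higher. One list mixed markers of 2-cell-like cells with zygotic genes that depend on Dppa2 and Dppa4, and dependence of each gene was not tested. Of its 20 genes, 18 were in the table but only 6 passed the filter on low values. Of these 1 fell, Zfp42 (Rex1), at -3.14 ± 0.09, and it is also an ES cell marker. Zscan4c, a marker of 2-cell-like cells, was at -0.28 ± 0.19 (limma adjusted p = 0.207). The median of the 6 was -0.15. Of the 18 genes, 16 were below 1 TPM in all libraries at 0 h and 17 at 168 h, Zscan4c among the latter. The change of Zscan4c and the median therefore rest on values near the floor. At 96 h the median of the 6 was 0.42. Some were higher with a limma adjusted p under 0.05, but none was called higher. Of the 18 genes, 12 were below 1 TPM in all libraries at 72 h and 15 at 96 h. Apart from Zfp42, the listed genes had too little signal for a statement on zygotic transcripts.

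Most germline genes that were tested were lower as well. Of 20 listed, 19 were tested, 17 fell and 1, Taf7l, rose at 168 h, with a median of -2.22. The largest were Rpl10l, a retrogene of a ribosomal protein used in spermatocytes, at -5.00 ± 0.17, Tfap2c at -3.74 ± 0.22, Hormad1, a protein of the meiotic chromosome axis, at -3.62 ± 0.12, and Prdm14, a repressor of somatic and methylation genes, at -3.02 ± 0.21. Already at 48 h 6 of the 19 were called lower and none higher, against 7.26% and 9.14% of all genes. At 96 h 14 were lower and none higher, against 14.1% and 15.4%, and in XEN cells 17 were lower and none higher, against 18.7% and 18.9%. Of the 20 listed genes 13 were below 1 TPM in all libraries at 168 h and 19 in XEN cells, against 1 at 0 h, so most passed the filter through the ES cell groups and had little room to be called higher, and the counts are no support for a common direction. Prdm14 was at 8.02 ± 0.394 TPM (SD, n = 3) at 0 h and at 1.99 ± 0.358 TPM (SD, n = 3) at 16 h.

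The KH-domain relatives of Dppa5a were called lower at earlier times than Dppa5a. Ooep and Khdc3, which encode subunits of the subcortical maternal complex of the oocyte, were the 2 other family members that passed the filter. Ooep, whose gene lies 7932 bp from Dppa5a, was at 106 ± 9.08 TPM (SD, n = 3) at 0 h, 27.2 ± 1.55 TPM (SD, n = 3) at 48 h and 13.5 ± 2.05 TPM (SD, n = 3) at 96 h. Its log2 change was -1.93 at 48 h, -2.90 at 96 h and -4.75 ± 0.20 at 168 h. Khdc3 was at 53.5 ± 12.02 TPM (SD, n = 3) at 0 h and 4.02 ± 0.892 TPM (SD, n = 3) at 96 h, and its log2 change at 168 h was -5.44 ± 0.17. At 96 h Dppa5a held 74.6% of its untreated level where Ooep held 12.7% and Khdc3 7.52%; the difference between these genes was not tested.

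Enzymes of threonine, glycine and serine metabolism fell in number at late times. All 23 listed genes were tested; 5 fell and 1 rose by 48 h (all genes 7.26% and 9.14%), 10 fell and none rose by 96 h (14.1% and 15.4%), and 13 fell and none rose by 168 h (16.5% and 22.6%), with a median of -1.25 at 168 h. In XEN cells 7 were lower and none higher, against 18.7% and 18.9% of all genes, with a median of -0.53. After Tdh the largest losses were those of Gldc and Amt, the decarboxylase and aminomethyltransferase of the glycine cleavage system, at -3.83 ± 0.25 and -3.61 ± 0.09. Gldc was at 108 ± 4.45 TPM (SD, n = 3) at 0 h, 123 ± 4.05 TPM (SD, n = 3) at 16 h and 19.9 ± 3.57 TPM (SD, n = 3) at 72 h.

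Gcat, which cleaves the product of Tdh into glycine and acetyl-CoA, was not called before 168 h against 0 h. It was at 42.4, 39.5 and 37.2 TPM at 0 h and at 38.0, 36.9 and 46.0 TPM at 16 h, when Tdh was already at less than 50% of its untreated level. At 48 h its libraries were at 67.3, 66.9 and 64.2 TPM, above all untreated ones, and the log2 difference was 0.72 ± 0.16 (limma adjusted p = 0.000619), under the fold minimum. By 168 h Gcat was at 7.70, 6.21 and 4.47 TPM, a fall of -2.54 ± 0.16 (limma adjusted p = 1.96e-11), and XEN cells held 8.69 and 8.10 TPM.

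**Figure D4:**
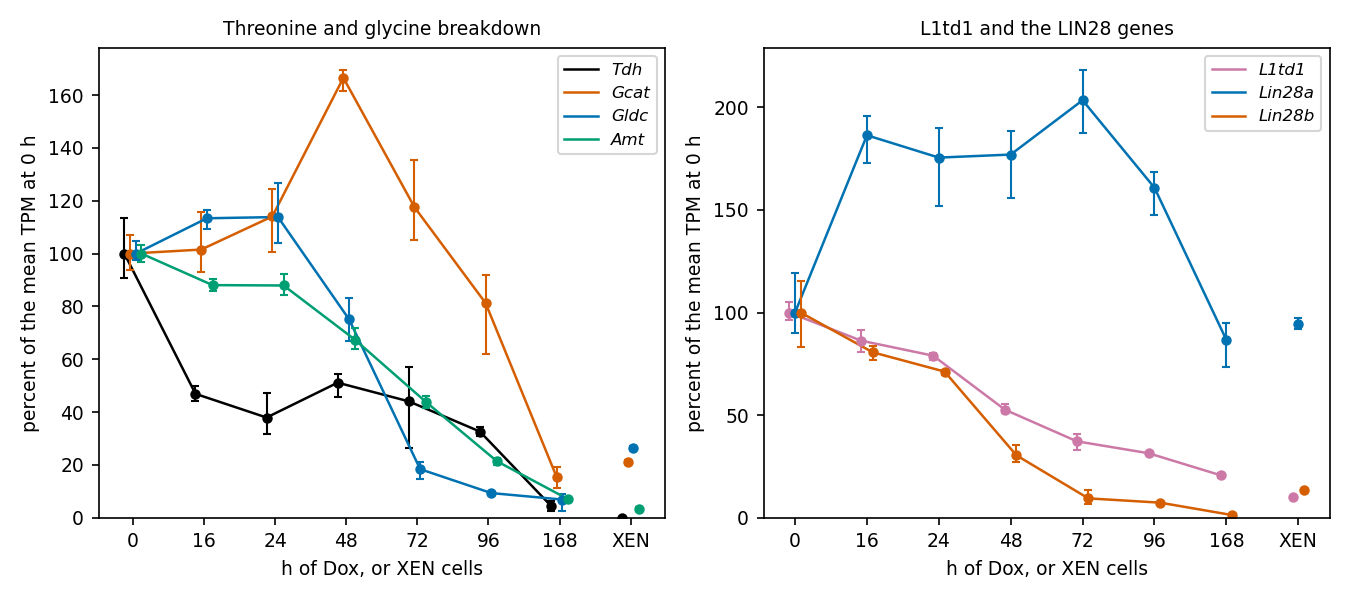
Percent of the mean TPM at 0 h (vertical axis, from 0) by hours of Dox and in XEN cells for Tdh with the enzymes Gcat, Gldc and Amt (left) and for L1td1 with Lin28a and Lin28b (right); points are group means and bars run from the lowest to the highest library. At 16 h Tdh was at 46.9% and Gcat at 102%, and at 72 h L1td1 was at 37.3%, Lin28a at 203% and Lin28b at 9.48%.

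Lin28a, the partner of L1td1, had higher values from 16 to 96 h than at 0 h while L1td1 had lower ones. It blocks maturation of let-7 microRNAs and was at 108, 108 and 143 TPM at 0 h and at 234, 227 and 206 TPM at 16 h, and these groups did not overlap. At 72 h it was called higher at 1.03 ± 0.12 on the log2 scale (limma adjusted p = 3.69e-07), a call that ended at 0.95 under median-of-ratios rescaling and at 0.97 under gene length correction. At 168 h Lin28a was at 109.5, 113 and 87.8 TPM and in XEN cells at 109.8 and 116 TPM, with no call against 0 h at either point. Its paralog Lin28b fell by 2.82 ± 0.12 on the log2 scale at 168 h, from 6.77 ± 1.09 TPM (SD, n = 3). Of the 11 genes of this list, L1td1 included and all tested, L1td1 and Lin28b were lower and 3 were higher at 168 h. These counts were near the shares of all genes, 16.5% lower and 22.6% higher, and are no result about the list. The 3 higher genes included Igf2bp3, an mRNA-binding protein, at 1.92 ± 0.21, and Tut7, a uridylyl transferase that acts on let-7 precursors, at 1.56 ± 0.09. The median of the list was -0.18.

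Dppa3 and the DNA methylation genes moved in both directions. Of 11 listed genes, Dppa3 included and all tested, 6 were lower and 2 higher at 168 h, against 16.5% and 22.6% of all genes. The count of higher genes was near the share of all genes, and the median was -1.01. Beside Dppa3 itself, Tet1 and Tet2, which oxidise methylcytosine, fell, with log2 changes of -3.54 ± 0.17 and -2.46 ± 0.12, whereas Tet3 rose by 1.83 ± 0.11. Uhrf1, the maintenance factor that DPPA3 protein binds, was at 196 ± 6.32 TPM (SD, n = 3) at 0 h, 110.1 ± 1.75 TPM (SD, n = 3) at 96 h and 77.0 ± 7.55 TPM (SD, n = 3) at 168 h. At 96 h Uhrf1 thus held 56.1% and Dppa3 9.81% of the untreated level.

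The ES and PrE marker lists give the setting of these changes. Of 12 ES cell markers, 8 fell and 1, Tbx3, rose by 48 h, against 7.26% and 9.14% of all genes. By 168 h 10 had fallen, against 16.5%. The largest losses were those of Tdgf1 at -7.43 ± 0.31, Esrrb at -6.71 ± 0.29, Nanog at -6.70 ± 0.22 and Sox2 at -6.28 ± 0.20. The other 2 were not called at 168 h. Klf4 was higher at 0.81 ± 0.18 (limma adjusted p = 0.000441), under the fold minimum, and Tbx3 was at -0.42 ± 0.19 (limma adjusted p = 0.0517). These genes were listed as markers of ES cells, and their counts describe the setting only. All 15 PrE markers rose at 48, 96 and 168 h, against 9.14%, 15.4% and 22.6% of all genes. At 168 h Col4a1 was at 9.30 ± 0.14, Col4a2 at 9.19 ± 0.17, Cubn at 8.14 ± 0.27 and Gata6 at 8.09 ± 0.09. Gata6 was counted over the cassette too, so its rise follows from the design. Of the 15 genes, 7 were below 1 TPM in all libraries at 0 h and had little room to be called lower. In XEN cells 14 were higher and 1, Amn, was lower, against 18.9% and 18.7% of all genes. The counts of PrE markers describe the setting only. At 48 h the median change was -1.94 over the ES cell markers and -0.86 over the 6 genes, and at 168 h it was -5.17 and -3.08.

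The genes whose pattern was most like that of each member over the 23 induction libraries were named from 11355 genes by Pearson's r of log2(TPM + 1). These are descriptions: the libraries share time points, and XEN cells weigh heavily where a gene is near 0 there. For Dppa2 they were Zscan10 (r = 0.994), Gm4737 (0.992) and Dppa4 (0.989), and for Dppa4 they were Zscan10 (0.99), Dppa2 (0.989) and Lrba (0.987). Dppa3 was most like Glt1d1 (0.992), Gm2381 (0.99) and Hmga1 (0.99), and L1td1 most like Riox2 (0.991), Itpk1 (0.991) and Mrpl45 (0.99). Dppa5a was most like Rps3a2 (0.996), 2410003L11Rik (0.996) and Rps2 (0.994), and Tdh most like Spint1 (0.98), Dmd (0.98) and Stat6 (0.978). Among the members themselves the highest r was that of Dppa2 with Dppa4 and the lowest that of Dppa3 with Dppa5a, at 0.723.

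Whether Oct4 contributes to these levels was asked in the knockdown. Pou5f1 was between 782 and 1194 TPM in siCTL libraries, with a median of 895 TPM, and between 282 and 387 TPM in siOct4 libraries, with a median of 314 TPM. The log2 change was -1.52 ± 0.14 (limma adjusted p = 5.21e-05), lower in 6 of 6 pairs of replicate numbers, so the target was reduced and not lost. Gata6, counted over the cassette and the endogenous gene together, was at 92.6 to 198 TPM in siCTL and 51.2 to 130.2 TPM in siOct4 libraries. The difference was -0.50 ± 0.22, with a limma adjusted p of 0.326 in the fit without pairs. Each siOct4 library was below the siCTL library of the same number. From a measure of the endogenous transcript alone, the paper reports lower Gata6 in the knockdown.

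Tdh was the one gene of the 6 called, against 1.72% of the 6264 genes tested. Its siCTL libraries ran from 50.4 through a median of 79.0 to 95.8 TPM, and its siOct4 libraries from 21.0 through 29.8 to 41.5 TPM. All siOct4 libraries lay below all siCTL libraries. The log2 change was -1.31 ± 0.20 (limma adjusted p = 0.00204), which is 0.404 times the control on the scale of TPM + 1. It lay between -1.50 and -1.11 in the 6 pairs. The two-sided exact permutation test over the 924 ways to divide the 12 libraries gave p = 0.00216, the smallest it can give, and the two-sided exact sign-flip test of the pairs gave p = 0.0312, the smallest for 64 sign patterns. These exact tests were run on 6 genes, and their p-values are unadjusted. Tests that use the pairs take the 6 pairs as independent, which they may not be. The median over the table was -0.12, and 0.01 after median-of-ratios rescaling, which put Tdh at -1.16.

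**Figure D5:**
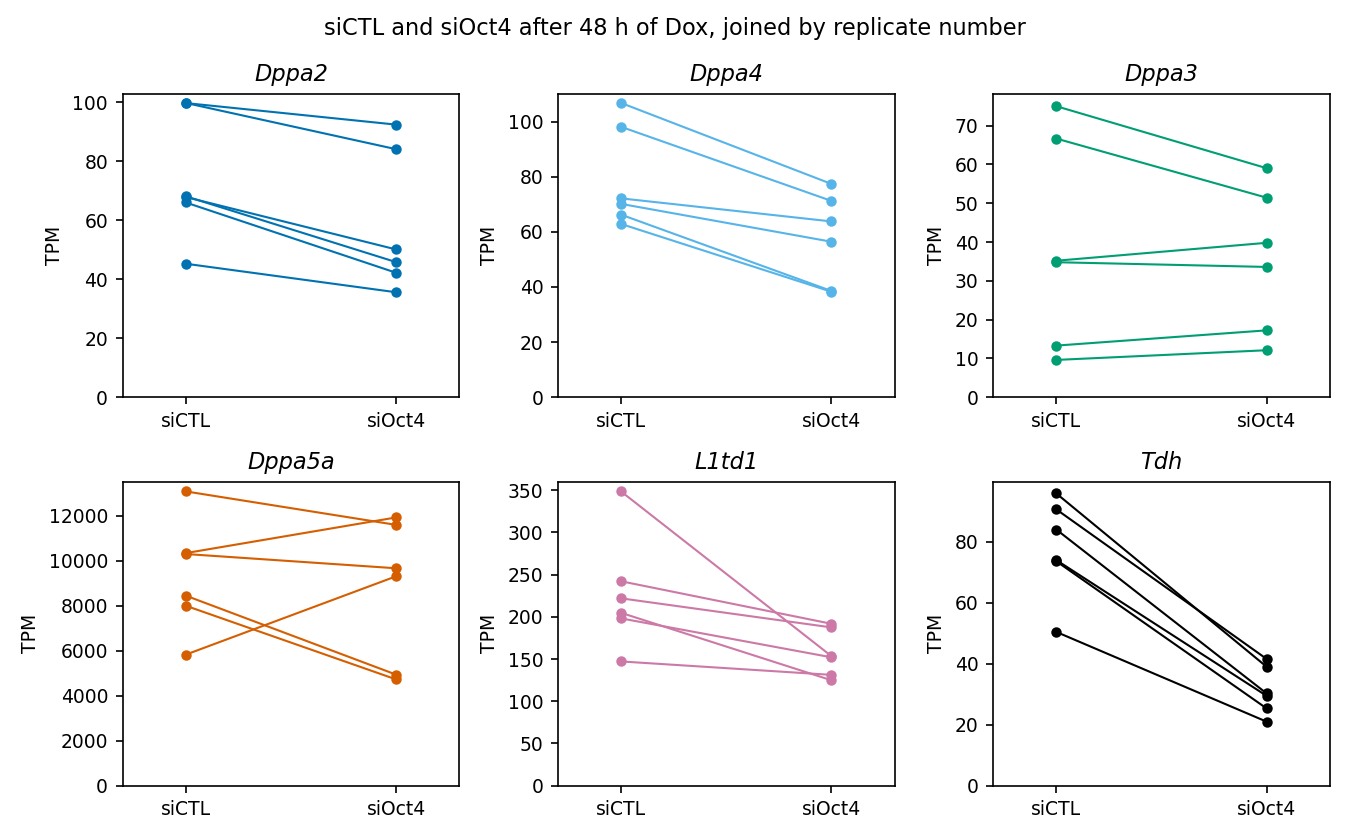
TPM of each of the 6 genes (vertical axis, from 0) in siCTL and siOct4 libraries after 48 h of Dox; each point is a library and lines join libraries of the same replicate number. For Tdh all 6 lines fall and the groups do not overlap, for Dppa2, Dppa4 and L1td1 all 6 lines fall but the groups overlap, and for Dppa3 and Dppa5a lines run both ways.

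For L1td1 the siCTL libraries ran from 147 through 213 to 349 TPM and the siOct4 libraries from 125 through 153 to 192 TPM. The groups overlapped, although all 6 pairs were lower. The log2 change was -0.50 ± 0.19 with a limma adjusted p of 0.216 and a two-sided exact permutation p of 0.0216; the limma fit blocked on replicate number gave ± 0.14 and an adjusted p of 0.0412, so that L1td1 was called there beside Tdh, against 6.15% of all genes. A correction for gene length in that blocked fit put L1td1 at -0.38, under the fold minimum of 0.5. Without replicate 4, whose siCTL library was the highest, the change was -0.37 (exact permutation p = 0.0635). With 1 replicate number left out, the exact permutation p ran from 0.00794 without replicate 3 to 0.0714 without replicate 2. Median-of-ratios rescaling gave a smaller change of -0.35 (exact permutation p = 0.00649). Gene length correction without the block gave -0.38 (exact permutation p = 0.00216). All 6 pairs were lower under each of these 2 alternatives.

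Dppa2 and Dppa4 were lower in 6 of 6 pairs as well. Dppa4 ran from 62.9 through 71.1 to 107 TPM in siCTL and from 38.3 through 60.1 to 77.4 TPM in siOct4 libraries, and the log2 difference was -0.48 ± 0.21 (limma adjusted p = 0.313, exact permutation p = 0.0649). Dppa2 ran from 45.2 through 68.0 to 99.8 TPM and from 35.6 through 47.9 to 92.4 TPM, with a difference of -0.39 ± 0.26 (limma adjusted p = 0.576, exact permutation p = 0.199). In both genes the libraries of the groups overlapped, and each paired exact sign-flip test gave p = 0.0312. That test takes the 6 pairs as independent, which they may not be, so its p may be too small. Gene length correction put Dppa4 at -0.44 with an exact permutation p of 0.0216. After median-of-ratios rescaling 5 of 6 pairs were lower for each.

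Dppa3 and Dppa5a showed no difference at this spread. Dppa3 ran from 9.60 through 35.0 to 75.0 TPM in siCTL and from 12.1 through 36.7 to 59.0 TPM in siOct4 libraries. Replicates 3 and 4 were the lowest and 5 and 6 the highest in both groups, so the spread between replicate numbers exceeded that between treatments, and 3 of 6 pairs were lower (exact permutation p = 0.981). Dppa5a ran from 5822 through 9369 to 13076 TPM and from 4721 through 9482 to 11919 TPM, with a difference of -0.15 ± 0.25 (limma adjusted p = 0.847) and 4 of 6 pairs lower. The sign of both differences turned under some of the alternatives, and neither direction can be read. Over all genes tested with siRNA, the main fit, which does not use the pairs, called 108 lower and 59 higher, or 153 and 144 after rescaling. The limma fit blocked on replicate number called 385 lower and 152 higher.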

How the data were processed

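RNA-seq libraries were stranded and selected for polyA. The authors used STAR for alignment to mm10 and RSEM for quantification, deposited the values as TPM and left out outliers seen in a principal component analysis; tool versions and annotation are not given in the sources used here. TPM keeps no read number, so precision rests on the spread between replicates. Text classes of the authors' own tests in the siRNA table were not used. For 60 symbols on more than 1 row, the highest row by mean was used. Values were tested as log2(TPM + 1), which understates changes of low genes, with limma 3.58.1 in R 4.3.3 (trend and robust), 1 coefficient per group, over genes whose mean reached 1 TPM in any group. P-values were adjusted by Benjamini-Hochberg over all genes tested. Calls needed an adjusted p under 0.05 and a log2 change above 1, or 0.5 for siRNA. Exact tests, levels and figures used Python 3.11.15. The fits were tested on simulated data. Gene length correction, an alternative chosen after seeing the data, removed the trend of each library with exon length (GENCODE M21).

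Named genes were the 6 members and, from each list, up to 4 genes with the largest called change at 168 h. Gcat, Lin28a, Pou5f1, Gata6 and the 3 genes most like each member were named as well. Zscan4c, Taf7l, Fn1, Uhrf1, Amn, Klf4 and Tbx3 were chosen after their values were seen. The members and lists were chosen with earlier results of these data known. Groups and replicate numbers came from the sample titles. Same-numbered siCTL and siOct4 libraries deviated together, with a mean r of 0.328 and each pair at or above 0.236. Other pairs were at -0.064 on average, from -0.556 to 0.459. The numbers were therefore taken as pairs in the sign-flip tests and in the fit with the replicate block. The main limma fit and the permutation tests did not use the pairs. Some libraries of neighbouring numbers also deviated together, and the 6 pairs may not be independent. In the induction series same-numbered libraries did not deviate together (0.033). The methods name separate experiments as replicates.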

Additional observations from a re-analysis of the deposited data

How the results depend on the processing

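Depth is unknown for TPM. Log2 changes of the 6 genes kept direction and side of the threshold in 835 cases, passed the threshold only under the alternative in 21, lost it in 9 and reversed in 5. At 16 h the count of called members was 0 without any 1 replicate number, where 1 was called in all libraries; the fewer libraries raised the adjusted p or brought the change under 1. With no fold minimum the counts were 3 at 24 h, 4 at 48 h and 4 for 96 against 48 h. At 48 h, gene length correction, chosen after seeing the data, gave 1, with or without the replicate block, and leaving out 1 replicate gave 1 throughout; for 96 against 48 h leaving out 1 replicate gave 1 to 2. The paired fit with the replicate block called 2 members for siOct4 and changed no other count of called members. By unadjusted exact tests 2 members passed for siOct4, 3 with gene length correction (Dppa4 added), 1 to 2 with 1 replicate left out and 4 by the paired sign-flip test. Reversed values were those of Dppa3 with 1 replicate left out, between -0.23 and 0.27 at 24 h and between -0.056 and 0.088 under siOct4, and Dppa5a under siOct4 after median-of-ratios rescaling (3.62e-05). The cause was not tested. Rescaling moved the level left to 7.63% for Dppa4 at 168 h and to 76.4%, 30.3% and 18.3% for L1td1 at 24, 96 and 168 h. List counts kept within 1.5 times in all 144 cases. For the induction series the numbers share no stated batch.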
